A study of Homo sapiens with 8 samples.

Results

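The subject is a set of 7 genes that build or shape caveolae, CAV1, CAV2, CAVIN1, CAVIN2, CAVIN3, EHD2 and PACSIN2, in the human B-cell leukaemia line JVM13. All array features annotated to exactly 1 of these genes were taken, which gave 21 of the 45220 probe sets of the deposited table that name a single gene. CAV1 was chosen by its measured levels in these arrays, which were already known to be higher with induced cyclin D1, so every CAV1 value below is a description without a test. The other 6 genes joined it for their place in the caveola.

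Caveolae are small flask-shaped pits of the plasma membrane. Caveolins, hairpin proteins that bind cholesterol, oligomerise in the inner leaflet, and cavins polymerise on top of them into a coat that bends the membrane. EHD2, an ATPase at the neck, holds the pit at the surface, and PACSIN2, a membrane-curving F-BAR protein, helps to form it. Endothelium, adipocytes, fibroblasts and muscle are rich in caveolae, while lymphocytes are known for having few or none.

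RNA was measured on 8 Affymetrix arrays. The cells carried a doxycycline-inducible construct with cyclin D1 bearing the T286A mutation (n = 3), with wild-type cyclin D1 (n = 3) or with no insert, called empty vector here and titled control in the labels (n = 2). Every group, empty vector included, received doxycycline at 0.1 µg/mL. T286A removes a phosphorylation site of cyclin D1 that serves its export from the nucleus and its breakdown. The labels state neither how long induction lasted nor whether replicates were separate cultures or how many transduced populations stand behind a construct, so the p-values measure the spread between these arrays, which may be technical. Values are log2 levels from RMA, a robust averaging over the probes of a probe set, so that a fold change of 2.00 is a difference of 1 unit, and each probe set was fitted with limma over all 48854 non-control probe sets with Benjamini-Hochberg adjustment, two-sided, with a call at an adjusted p under 0.05.

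The brightest probe set of CCND1, the gene of cyclin D1, averaged 11.02 ± 0.20 in T286A cells, 11.06 ± 0.075 in wild-type cells and 5.12 ± 0.19 in empty vector cells (SD). The other 3 CCND1 probe sets lay between 3.85 and 4.69 in all arrays, with differences from empty vector of -0.09 to 0.10. The brightest probe set separated both construct groups from empty vector but not T286A from wild type (difference -0.04, limma adjusted p = 0.914), so the arrays do not check which form a construct carries. Wild-type replicate 2 stood apart from its group. It correlated with the other wild-type arrays at 0.994 and 0.995 across probe sets, against 0.997 between those arrays. Array medians lay between 5.47 and 5.62 and lower quartiles between 4.38 and 4.41. Of 10 B-cell markers 9 were analysed here, at levels from 7.63 for the transcription factor PAX5 to 13.4 for MS4A1, the CD20 gene, and limma called 0 of them in any comparison.

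The genomic sequence before the start sites of the caveolin genes is shown first, because CAV1 and CAV2 are direct neighbours on chromosome 7. RefSeq promoter windows (GRCh38.p14, 250 bases before to 50 after a start) were held for 5 of the 7 genes. The 250 bases before the most upstream start of each caveolin, on the plus strand, lie at chr7:116524759-116525008 for CAV1 and at chr7:116499488-116499737 for CAV2. Capitals mark the letters GGGCGG, the GC box read by SP1-type factors, and TTTGGCGG, a variant of the site read by E2F factors, on either strand.
CAV1 promoter: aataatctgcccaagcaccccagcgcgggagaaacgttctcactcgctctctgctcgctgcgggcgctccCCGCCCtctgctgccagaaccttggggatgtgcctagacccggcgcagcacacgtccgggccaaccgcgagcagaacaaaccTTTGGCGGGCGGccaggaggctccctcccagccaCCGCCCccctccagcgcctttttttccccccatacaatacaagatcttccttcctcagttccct
CAV2 promoter: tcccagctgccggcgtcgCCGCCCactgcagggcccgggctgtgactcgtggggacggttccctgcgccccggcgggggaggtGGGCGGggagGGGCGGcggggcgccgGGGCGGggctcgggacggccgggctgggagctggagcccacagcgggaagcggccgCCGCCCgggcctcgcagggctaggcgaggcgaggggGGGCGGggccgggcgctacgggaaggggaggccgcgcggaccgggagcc

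The CAV1 stretch is 63.6% G and C and the CAV2 stretch 83.2%. CAV1 had 3 windows and CAV2 had 2. In the most upstream CAV1 window the letters TTTGGCGG began at position -98, counted from the start site, and overlapped a GC box at -92. The second CAV1 window overlaps the first and holds the same letters at -125, and the third holds none. This 8-letter word was added to the search after the CAV1 sequence had been seen, and it occurs in 0.652% of all 35116 windows. The more usual E2F words TTTGGCGC, TTTCCCGC, TTTCGCGC and TTTGCCGC matched 0 times in the windows of the 5 genes, and 3.31% of all windows hold at least 1 of them. GC boxes occurred 3 times in the most upstream CAV1 window and 6 times in the most upstream CAV2 window. Of all windows, 45% hold at least 1. A TATA word (TATAAA), found in 11.5% of windows, matched in none of the windows of the 5 genes. All words were searched on both strands, and a match of letters is not a binding site.

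CAV1 encodes caveolin-1, the protein on which caveolae outside muscle depend. It was higher with both cyclin D1 forms, and the wild-type form gave the higher level. The brightest of its 4 probe sets, 11745716_s_at, read 8.17, 8.07 and 8.13 in T286A cells, 8.75, 8.40 and 8.36 in wild-type cells, and 7.52 and 7.49 in empty vector cells. No array of one group overlapped with another group in this probe set. The difference from empty vector was 0.62 in T286A cells, or 1.54-fold, and 1.00 in wild-type cells, or 2.00-fold, and T286A minus wild type was -0.38. Without wild-type replicate 2 the difference of wild-type cells from empty vector was 1.05 and T286A minus wild type was -0.43.

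Probe set 11715584_a_at of CAV1 read 7.27, 7.60 and 7.43 in T286A cells, 7.89, 7.67 and 7.91 in wild-type cells, and 6.70 and 7.03 in empty vector cells. Probe set 11745715_a_at read 7.56, 7.40 and 7.68 in T286A cells, 7.91, 7.68 and 8.03 in wild-type cells, and 6.77 and 7.08 in empty vector cells. Both put the groups in the same order as the brightest probe set, with no overlap, although in 11745715_a_at the highest T286A array and the lowest wild-type array were equal to 2 decimals. Their differences from empty vector were 0.57 and 0.62 in T286A cells and 0.96 and 0.95 in wild-type cells, in that order of probe sets.

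Probe set 11757013_x_at was the one in which T286A cells came close to empty vector. It read 6.14, 6.26 and 6.40 in T286A cells, 7.13, 6.87 and 6.93 in wild-type cells, and 5.83 and 6.25 in empty vector cells. The T286A and empty vector arrays overlapped there, while every wild-type array lay above all others. Its difference from empty vector was 0.23 in T286A cells, or 1.17-fold, and 0.94 in wild-type cells, or 1.92-fold. The suffix x marks probe sets of this platform with probes that can also match other sequences, and s marks those shared between transcripts, so their share of CAV1 signal is uncertain.

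Over the 4 probe sets, wild-type arrays lay above all empty vector arrays in 4, T286A arrays did so in 3, and T286A arrays lay below all wild-type arrays in 4. Among all probe sets, 14.2% had every wild-type array above both empty vector arrays, 14.7% had this for T286A, and 8.55% had every T286A array below every wild-type array. These contrasts chose CAV1, and the counts are given only as a description. Fold differences from empty vector ran from 1.17 to 1.54 in T286A cells and from 1.92 to 2.00 in wild-type cells, so the probe sets varied more for T286A. The correlation between CAV1 probe sets over the 8 arrays, which share the group differences, lay between 0.853 and 0.936. After each group's mean was taken off, it lay between 0.0099 and 0.73, so the order of arrays inside a group was not the same in every probe set. Wild-type replicate 1, for instance, was the highest array in 11745716_s_at, and replicate 3 in 11745715_a_at.

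**Figure D1:**
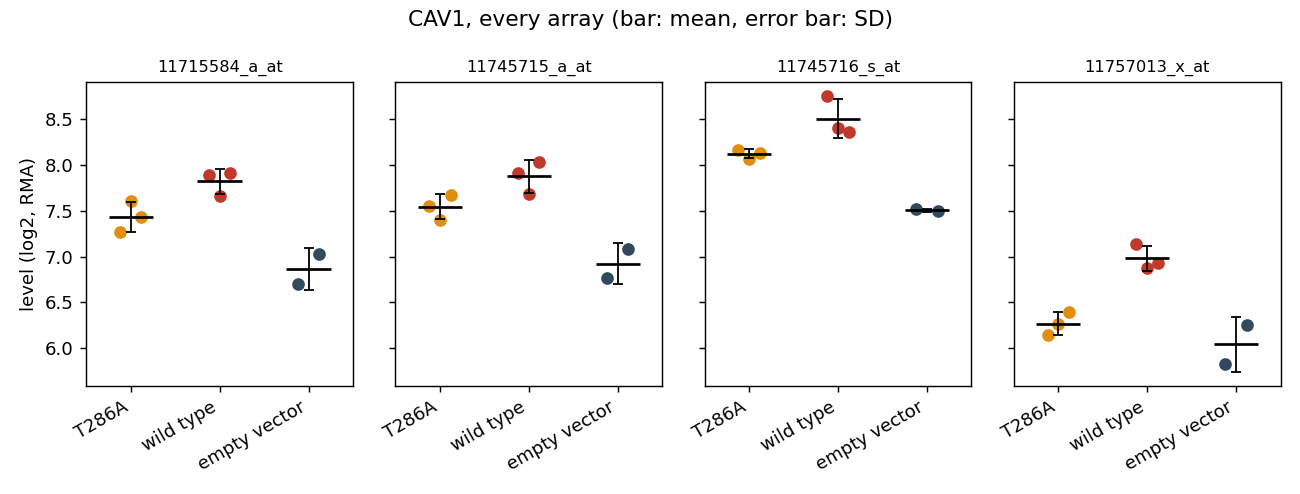
Log2 level (RMA) of the 4 CAV1 probe sets in every array, with T286A, wild-type and empty vector cells from left to right; horizontal bars are means and error bars SD. Wild-type arrays lie highest in each panel, and only in 11757013_x_at do T286A arrays overlap with empty vector arrays.

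The other 6 genes had 17 probe sets, and limma called 0 of 17 in each of the 4 comparisons. Of all probe sets, 0.127% were called in the comparison of T286A cells with empty vector cells, 0.798% in that of wild-type cells, 0.514% in that of both constructs together, and 0.526% between the constructs. At an unadjusted p under 0.05 there were 2 of 17 for T286A against empty vector, both lower, 1 for both constructs together, also lower, and 0 in the other comparisons. The share of all probe sets past that limit was 10.4% for T286A, 11.4% for wild type, 10.5% for both constructs, and 11.7% between the constructs. Arrays of the compared groups did not overlap in 4 of the 17 for T286A against empty vector, 1 higher and 3 lower, and in 2 for wild type, 1 higher and 1 lower. There were 0 such probe sets for both constructs together and 2 between the constructs, both higher in T286A cells. Over all probe sets the shares without overlap were 14.7% higher and 15.1% lower for T286A, 14.2% and 13.9% for wild type, 6.12% and 6.02% for both constructs, and 8.88% and 8.55% between the constructs. The median difference from empty vector was -0.02 in T286A cells and -0.05 in wild-type cells over these probe sets, against 0.00094 and 0.0039 over all probe sets. In 14 of the 17 the level stayed below the array's median in all 8 arrays. Background that remains in such dim probe sets makes differences too small, and the values carry no detection call, so an absent difference there is not a measured absence of change.

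CAV2 encodes caveolin-2, which assembles with caveolin-1 and needs it to reach the cell surface. Its 3 probe sets had levels of 3.67 to 4.05 over the arrays, below the lower quartile of each array. Probe set 11725965_a_at, the brightest, read 3.87, 3.95 and 4.03 in T286A cells, 3.77, 3.92 and 3.85 in wild-type cells, and 3.95 and 3.86 in empty vector cells. All 3 groups overlapped. Its difference from empty vector was 0.05 ± 0.085 in T286A cells (SE, 95% interval -0.15 to 0.24, limma adjusted p = 0.921) and -0.06 ± 0.085 in wild-type cells (95% interval -0.25 to 0.13, adjusted p = 0.869). Over its 3 probe sets and the 4 comparisons the intervals ran from -0.25 to 0.31, which is at most 1.24-fold either way. These intervals bound the measured difference and not the change in CAV2 RNA, since background shrinks differences in probe sets this dim.

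CAVIN1, the coat protein without which caveolae do not form, had 3 probe sets at levels from 3.75 to 5.46. The brightest, 11730730_s_at, read 5.09, 5.16 and 5.07 in T286A cells, 5.02, 4.89 and 5.40 in wild-type cells, and 5.06 and 5.46 in empty vector cells, with all groups overlapping. Its differences were -0.16 ± 0.16 in T286A cells and -0.16 ± 0.16 in wild-type cells (SE, limma adjusted p = 0.826 and 0.784). In 11749223_a_at the values were 4.21, 4.07 and 3.96 in T286A cells, 4.26, 4.0 and 4.12 in wild-type cells, and 4.25 and 4.51 in empty vector cells. All T286A arrays lay below both empty vector arrays there, whereas 1 wild-type array overlapped with them. The differences were -0.30 ± 0.12 in T286A cells (95% interval -0.57 to -0.03, unadjusted p = 0.0331, limma adjusted p = 0.425) and -0.26 ± 0.12 in wild-type cells (adjusted p = 0.47). The dimmest probe set, 11745377_x_at, differed by -0.02 in T286A cells and 0.00062 in wild-type cells. It did not share the lower means of the other CAVIN1 probe sets. Its levels of 3.75 to 3.99 lay below the lower quartile of each array, where remaining background makes differences too small.

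CAVIN2, which binds phosphatidylserine and helps to curve the membrane, had 2 probe sets, both below the array's median in every array. In 11725695_s_at the levels were 5.07, 4.79 and 5.18 in T286A cells, 5.24, 5.07 and 5.55 in wild-type cells, and 5.04 and 4.98 in empty vector cells. Every wild-type array was above both empty vector arrays, and T286A arrays overlapped with both groups. The difference from empty vector was 0.00084 ± 0.15 in T286A cells (limma adjusted p = 0.999) and 0.27 ± 0.15 in wild-type cells (95% interval -0.08 to 0.63, adjusted p = 0.572). In 11725694_at all groups overlapped, with differences of -0.11 and -0.01.

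CAVIN3, a cavin known to bind protein kinase C delta, had a single probe set, 11716322_s_at. It read 4.63, 5.19 and 4.62 in T286A cells, 4.38, 4.76 and 4.07 in wild-type cells, and 4.65 and 4.59 in empty vector cells. The groups overlapped, and both sets of construct arrays were spread more widely than the empty vector arrays, with an SD of 0.33 and 0.35 against 0.044. T286A minus wild type was 0.41 ± 0.20 (95% interval -0.04 to 0.86, limma adjusted p = 0.465). Its intervals were the widest of the 17 probe sets and allowed a difference of up to 1.82-fold either way.

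EHD2, which anchors the caveolar neck, had 5 probe sets at levels from 3.95 to 5.11. Probe set 11746200_s_at, the brightest, read 4.57, 4.69 and 4.26 in T286A cells, 4.88, 4.83 and 4.43 in wild-type cells, and 4.74 and 5.11 in empty vector cells. T286A arrays were all below empty vector arrays, and wild-type arrays overlapped with both. The difference from empty vector was -0.42 ± 0.18 in T286A cells (95% interval -0.83 to -0.0091, unadjusted p = 0.0461, limma adjusted p = 0.469) and -0.21 ± 0.18 in wild-type cells (adjusted p = 0.734). The other 4 probe sets differed from empty vector by -0.13 to 0.01 in T286A cells and by -0.07 to 0.05 in wild-type cells.

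PACSIN2, which also works in endocytosis outside caveolae, was the member besides CAV1 whose probe sets lay above the array medians. Its 3 probe sets ranged from 8.02 to 10.2. The brightest, 11759542_s_at, read 10.16, 10.18 and 10.16 in T286A cells, 10.10, 9.97 and 10.09 in wild-type cells, and 10.14 and 10.24 in empty vector cells. Every wild-type array was below both empty vector arrays and below every T286A array, by little. The difference from empty vector was -0.02 ± 0.078 in T286A cells (limma adjusted p = 0.963) and -0.13 ± 0.078 in wild-type cells (95% interval -0.31 to 0.04, adjusted p = 0.582), and T286A minus wild type was 0.11 ± 0.070 (adjusted p = 0.572). Probe set 11735196_a_at had the same order of constructs, with T286A minus wild type at 0.15 ± 0.082 (adjusted p = 0.512), and 11745763_a_at was at 0.01. In that last probe set every T286A array lay below both empty vector arrays, by -0.07 ± 0.079 (adjusted p = 0.84). Intervals over the 3 probe sets and the 4 comparisons allowed a difference of at most 1.26-fold either way.

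**Figure D2:**
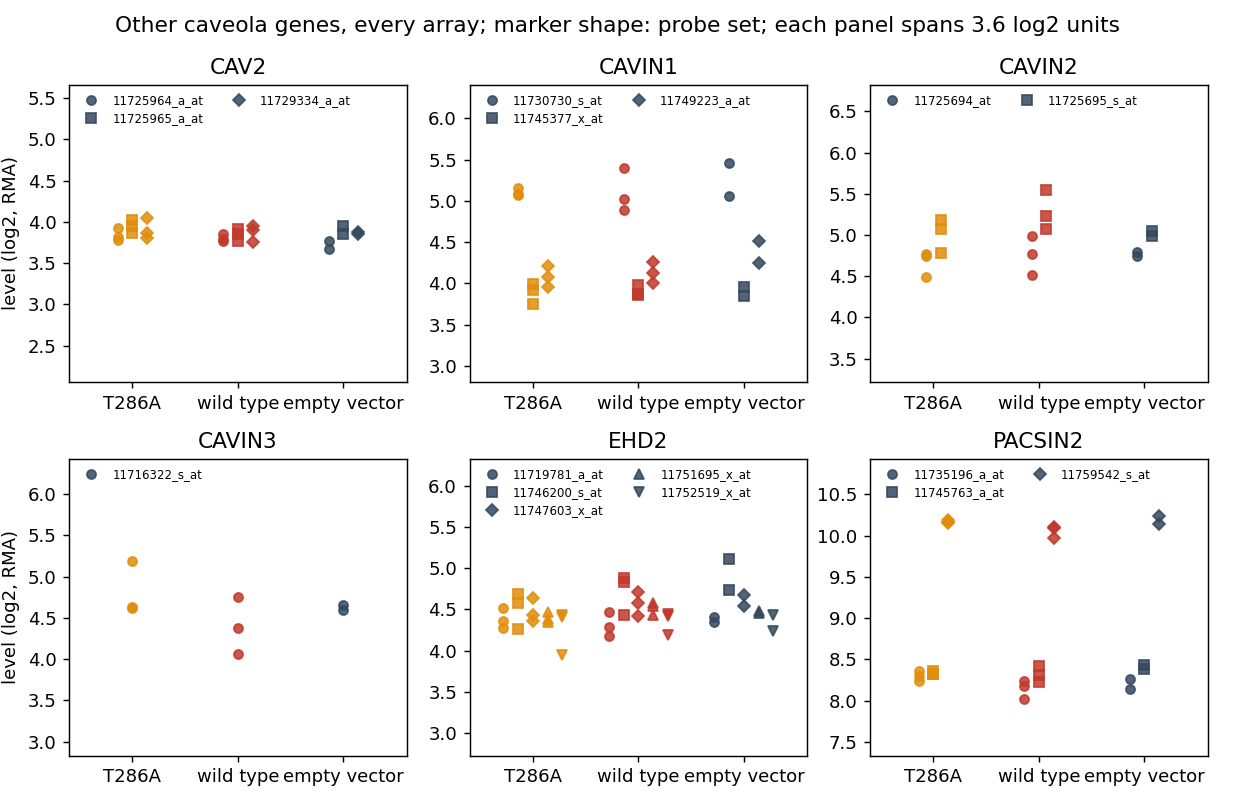
Log2 level (RMA) of the other 6 genes in every array, with T286A, wild-type and empty vector cells from left to right; each marker shape is a probe set, and all panels span the same height. Only PACSIN2 lies above the array medians of 5.47 to 5.62, and in most probe sets the groups overlap.

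**Figure D3:**
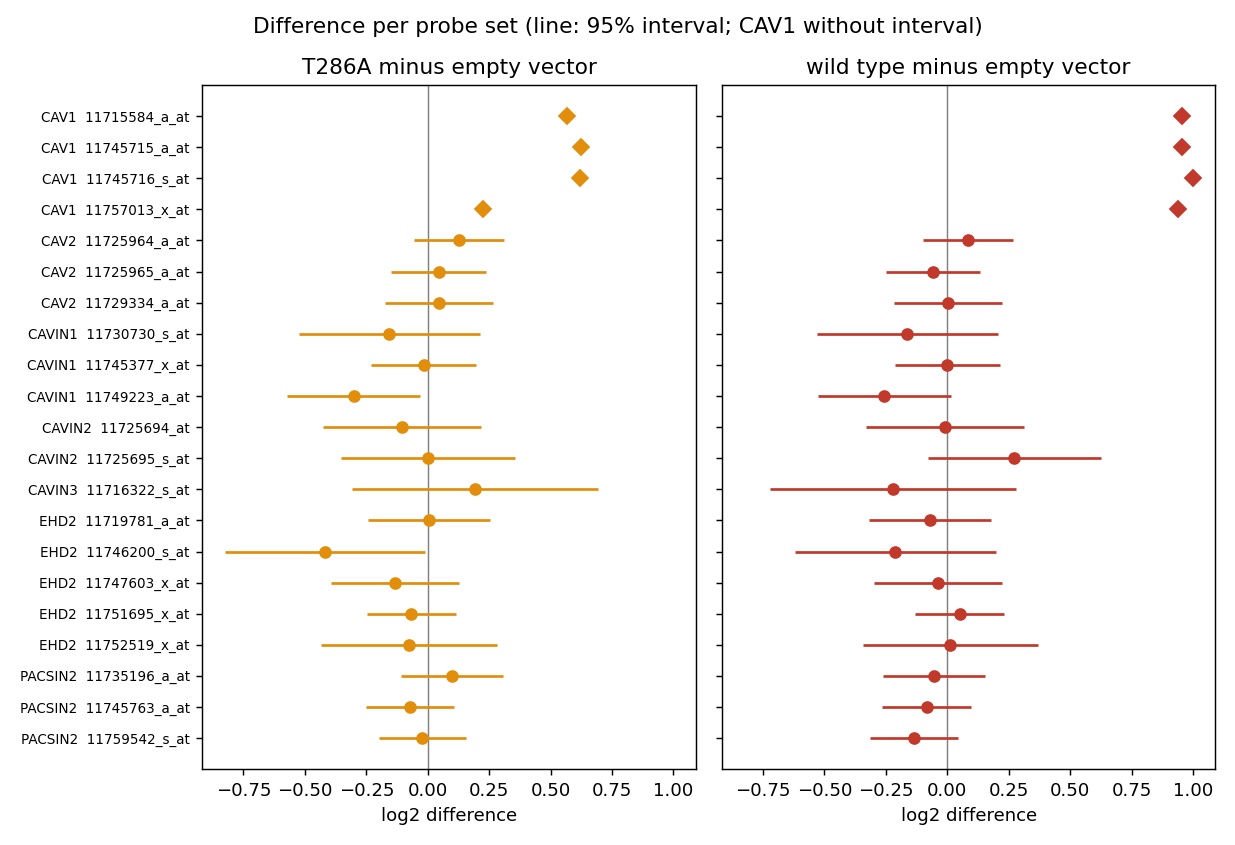
Log2 difference from empty vector of each of the 21 probe sets, for T286A in the left panel and wild type in the right; lines are 95% intervals from limma, and CAV1, chosen for its difference, has none. CAV1 lies at 0.23 to 0.62 for T286A and 0.94 to 1.00 for wild type, and limma called none of the other 17.

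Partners of caveolae outside the set were measured through a list of 20 genes, of which 19 were analysed here. The list was drawn up with earlier results of these arrays known. By limma 0 of 19 were called in any comparison. At an unadjusted p under 0.05, 2 were lower and 0 higher in T286A cells than in empty vector cells, and 5 were lower and 0 higher in wild-type cells, where 10.4% and 11.4% of all probe sets passed in either direction. In T286A cells relative to wild-type cells 4 were higher and 1 lower, against 11.7% of all probe sets. The list's median difference was -0.02 in T286A cells and -0.08 in wild-type cells, against -0.0030 and 0.0016 over all genes. UBXN6, a cofactor of the VCP ATPase that acts on caveolin-1 bound for lysosomes, read 9.03, 9.04 and 9.05 in T286A cells, 9.04, 9.17 and 9.16 in wild-type cells, and 9.40 and 9.43 in empty vector cells. Both constructs lay below empty vector with no overlap, by -0.37 ± 0.074 in T286A cells (limma adjusted p = 0.104) and -0.29 ± 0.074 in wild-type cells (adjusted p = 0.159). SCARB1, a lipoprotein receptor found in caveolae, was at -0.03 ± 0.072 in T286A cells (adjusted p = 0.934) and -0.31 ± 0.072 in wild-type cells (adjusted p = 0.122). The muscle forms CAV3 and CAVIN4 were between 4.41 and 4.83 and between 4.02 and 4.53 in every array. EHD4, a relative of EHD2 that works in endosomes, was at -0.22 ± 0.078 in T286A cells (adjusted p = 0.374). EHD3, another relative, was lower in T286A cells than in wild-type cells by -0.38 ± 0.11 (adjusted p = 0.23).

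Genes of the clathrin route, the main other way of pinching in the plasma membrane, gave 1 called gene among 16, SNX9. It was called for wild type, both constructs together and between the constructs, where 0.798%, 0.514% and 0.526% of all probe sets were called. In a fit of only the brightest probe set per gene, 317, 255 and 180 of 18231 genes were called, in that order. At an unadjusted p under 0.05, 1 was lower and 0 higher in each construct, against 10.4% (T286A) and 11.4% (wild type) of all probe sets. Relative to wild-type cells 2 were higher and 0 lower in T286A cells, against 11.7%. SNX9, a membrane-curving protein that works with dynamin late in clathrin-coated pit formation, fell with wild-type cyclin D1. Its brightest probe set read 8.0, 8.01 and 8.20 in T286A cells, 7.43, 7.31 and 7.36 in wild-type cells, and 8.32 and 8.61 in empty vector cells. The 3 groups did not overlap. The difference from empty vector was -0.39 ± 0.11 in T286A cells (limma adjusted p = 0.228) and -1.10 ± 0.11 in wild-type cells (adjusted p = 0.00471), and T286A minus wild type was 0.71 ± 0.097 (adjusted p = 0.0212). Both constructs together differed from empty vector by -0.74 ± 0.097 (limma adjusted p = 0.0231). A second probe set was called in the same comparisons, at -0.50 in T286A cells and -1.31 in wild-type cells. The last was dim and differed by 0.03 and 0.05. The call for wild type was lost without empty vector replicate 2 (adjusted p = 0.0625). The call for T286A against wild type was lost without any 1 of the 6 construct arrays (adjusted p = 0.0661 to 0.0929). The clathrin list's median difference was -0.03 in T286A cells and 0.02 in wild-type cells.

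YAP1 and WWTR1, which with TEAD factors raise transcription of several caveola genes in other cell types, were measured with their partners and targets in a list of 13 genes. By limma 0 of 13 were called in any comparison, and at an unadjusted p under 0.05 there were 1 higher and 1 lower in T286A cells and 2 higher and 1 lower in wild-type cells, against 10.4% and 11.4% of all probe sets in either direction. AJUBA, a LIM protein of the same pathway, was at 0.23 ± 0.093 in T286A cells and 0.23 ± 0.093 in wild-type cells (limma adjusted p = 0.44 and 0.394). The targets CCN1 and ANKRD1 were at -0.26 and 0.14 in T286A cells and -0.10 and 0.26 in wild-type cells (adjusted p from 0.307 to 0.742). Levels in the list ran from 3.92 to 7.64. CCN1 stayed below the array medians and ANKRD1 below the lower quartile of each array, where remaining background makes differences too small. An absent call in such dim genes is not a measured absence of change. WWTR1 stood at 0.32 ± 0.11 in T286A cells relative to wild-type cells (adjusted p = 0.334). The list's median difference was 0.04 in T286A cells and -0.08 in wild-type cells.

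On chromosome 7, the order of protein-coding genes in RefSeq is TFEC, TES, CAV2, CAV1, MET, CAPZA2, ST7 and WNT2. Of the 6 neighbours besides CAV2, limma called 0 in any comparison. At an unadjusted p under 0.05 there were 0 in T286A cells and 1, higher, in wild-type cells. Of all probe sets, 10.4% and 11.4% passed that limit in either direction. Between the constructs 1 neighbour was lower in T286A cells and 0 higher, against 11.7% of all probe sets. TES, which encodes the focal adhesion protein testin, read 11.13, 11.21 and 11.18 in T286A cells, 11.35, 11.32 and 11.34 in wild-type cells, and 11.01 and 11.06 in empty vector cells. Its groups stood in the same order as those of CAV1 and did not overlap, but its differences were smaller. They were 0.14 ± 0.070 in T286A cells (limma adjusted p = 0.538) and 0.30 ± 0.070 in wild-type cells (adjusted p = 0.117). For TES, T286A minus wild type was -0.16 ± 0.063 (adjusted p = 0.382). MET, the hepatocyte growth factor receptor gene on the other side of CAV1, was at 0.15 in T286A cells and 0.28 in wild-type cells (adjusted p = 0.843 and 0.579). Its wild-type arrays lay above both empty vector arrays, and its T286A arrays overlapped with them. ST7 was at -0.17 in T286A cells and -0.09 in wild-type cells (adjusted p = 0.594 and 0.802). TFEC stayed below the lower quartile of each array and WNT2 below the array medians, while MET lay around the medians. In TFEC and WNT2 an absent difference is not a measured absence of change.

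**Figure D4:**
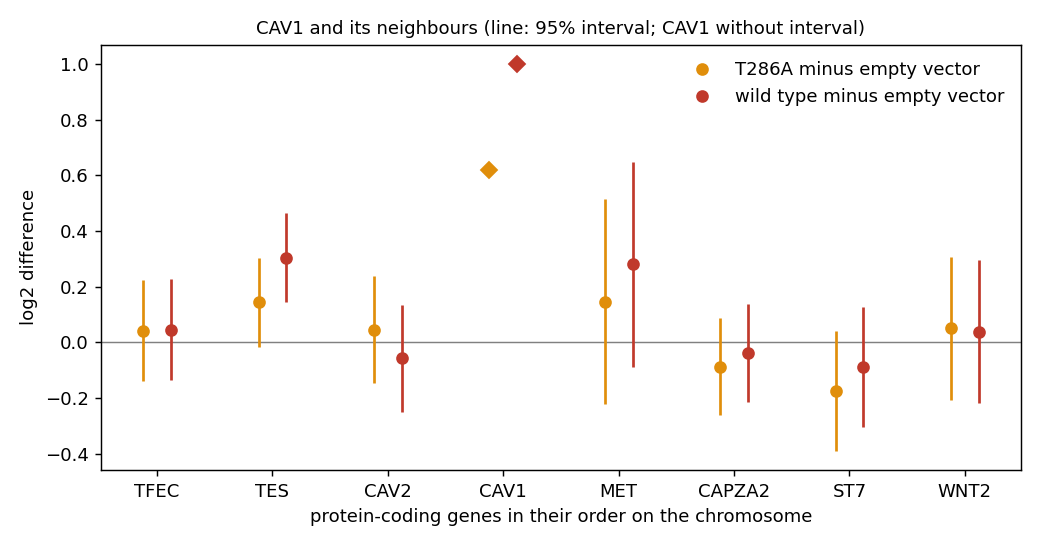
Log2 difference from empty vector of CAV1 and the genes beside it in their order on chromosome 7, T286A left and wild type right within each gene, from the brightest probe set of each gene; lines are 95% intervals from limma, and CAV1 has none. CAV1 stands at 0.62 and 1.00, and of its neighbours TES comes nearest in wild type at 0.30. CAV2, TFEC and WNT2 are dim, with levels below the array medians.

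Markers of cell types rich in caveolae were checked beside CAV1. All 21 markers of endothelium, fibroblasts, adipocytes and muscle were measured, limma called 0 of 21 in any comparison, and 15 were below the array median in all 8 arrays. At an unadjusted p under 0.05, 1 was higher and 1 lower in T286A cells, and 4 were higher and 1 lower in wild-type cells. Of all probe sets, 10.4% and 11.4% passed that limit in either direction. In T286A cells relative to wild-type cells 0 were higher and 3 lower (PECAM1, TEK and CDH5), against 11.7% of all probe sets. The mean level of the 21 markers lay between 5.17 and 5.27 in T286A arrays. It lay between 5.18 and 5.23 in wild-type arrays and between 5.19 and 5.23 in empty vector arrays. Fibroblast collagens COL1A1, COL1A2 and COL3A1 and the adipocyte markers ADIPOQ and FABP4 were among the 15. So were the endothelial markers CDH5, TEK, KDR, CLDN5 and EMCN, and differences in such dim genes are uncertain. ACTA2, a smooth muscle actin gene, was at 0.35 ± 0.077 in T286A cells and 0.26 ± 0.077 in wild-type cells (limma adjusted p = 0.131 and 0.229). CDH5, the endothelial cadherin gene, was at 0.11 ± 0.080 in T286A cells and 0.33 ± 0.080 in wild-type cells (adjusted p = 0.714 and 0.129), and PECAM1, which B cells can also express, was at -0.07 and 0.37 (adjusted p = 0.913 and 0.264). MYH11, a smooth muscle myosin gene, was at -0.38 and -0.27 (adjusted p = 0.256 and 0.407), and TEK, an endothelial receptor gene, at -0.07 and 0.27 (adjusted p = 0.876 and 0.35). The other endothelial markers did not share the values of CDH5, PECAM1 and TEK in wild-type cells. VWF was at -0.12 in T286A cells and -0.33 in wild-type cells, but its empty vector arrays were far apart, at 5.07 and 5.89. KDR was at 0.17 and 0.0041, CLDN5 at 0.11 and 0.0081, and EMCN at 0.07 and 0.10. For VWF, KDR, CLDN5 and EMCN the limma adjusted p ran from 0.553 to 0.993. The part of these markers in the CAV1 difference was not tested. Among B-cell markers CD22, an inhibitory receptor, was at -0.18 ± 0.085 in T286A cells and -0.40 ± 0.085 in wild-type cells (adjusted p = 0.51 and 0.0859). POU2AF1, a B-cell coactivator gene, was at 0.09 ± 0.070 and 0.19 ± 0.070 (adjusted p = 0.758 and 0.344). The other 7 ran from -0.13 to 0.16 in T286A cells and from -0.20 to 0.05 in wild-type cells. At an unadjusted p under 0.05, 0 of the 9 passed in T286A cells, and 1 was higher and 2 lower in wild-type cells. Over all probe sets 10.4% and 11.4% passed that limit in either direction. In T286A cells relative to wild-type cells 1 was higher (CD22) and 1 lower (MS4A1), against 11.7% of all probe sets.

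The genes whose levels over the 8 arrays were most like those of CAV1 were taken by Pearson correlation with its brightest probe set, among 1230 genes with an SD over the arrays of at least 0.25. The correlations are a description, since all points share the 3 groups and the arrays. ARHGAP5 had the highest correlation at 0.973. Its group means were 7.85 in T286A cells, 8.12 in wild-type cells and 7.25 in empty vector cells, the same order as for CAV1. KLHL14, the cytidine deaminase APOBEC3B, FAM9B and the histone gene H2AC8 followed at 0.925, 0.924, 0.917 and 0.908, and CCND1 itself stood at 0.871. The most opposite patterns were those of LRRN3 at -0.969, LBH at -0.964, the receptor CD40 at -0.963 and the chemokine receptor CCR9 at -0.958. CCR9 averaged 6.69 in T286A cells, 6.11 in wild-type cells and 7.67 in empty vector cells, so that the T286A mean lay between the others in the opposite direction.

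**Figure D5:**
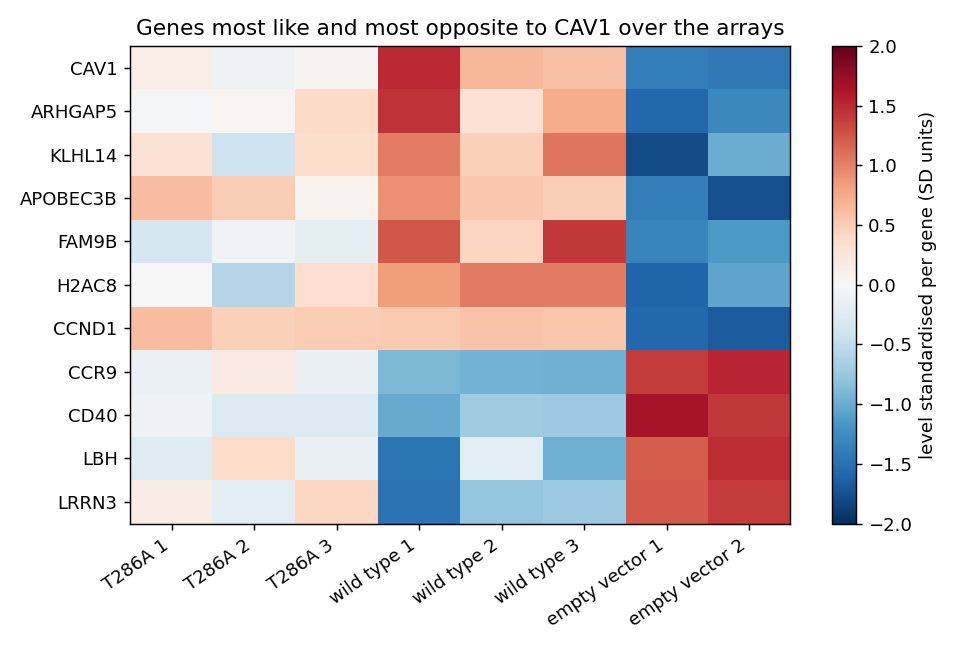
Level of CAV1 (top row), the 6 genes most like it and the 4 most opposite, by the brightest probe set, standardised per gene over the 8 arrays (SD units, red above and blue below the gene's mean); columns are T286A, wild-type and empty vector arrays from left to right. Correlations with CAV1 run from 0.871 to 0.973 for the like genes and from -0.969 to -0.958 for the opposite ones.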

How the data were processed

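The deposited table holds log2 expression values, which the authors obtained by RMA under R 3.5.0, as the submitters' processing notes name them; package and probe definitions are not given in the sources used here. RMA subtracts background, brings all arrays to a common distribution and averages probes robustly, so a change in total mRNA per cell is lost and each difference is relative to other genes. Scanner files were not used here. Precision is limited by how few arrays there are. Of 48864 probe sets, 10 control probe sets were left out. Gene names came from the array's platform annotation, in which 45220 probe sets named 1 gene, 1325 several and 2309 none.

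Groups came from the sample titles. A single limma model (lmFit, then eBayes; limma 3.58.1 under R 4.3.3) took in the 8 arrays and gave every group its own mean, with 5 residual and 3.6 prior degrees of freedom. Each construct, and both together, were compared with empty vector, and the constructs with each other. The fit was tested on simulated data. Alternatives were the brightest or the mean probe set per gene, brighter probe sets only, quantile normalization again, housekeeping centring, array weights, eBayes with trend and robust, only the groups compared, a replicate block and leaving out each array. Comparisons with empty vector share the same 2 arrays. Gene lists use the brightest probe set per gene (18231 genes), whereas the shares of all probe sets beside them also count dimmer and repeated probe sets. The members and lists were chosen with earlier results of these data known. Named were all members, CCND1, from each list and comparison up to 4 called genes or, with none called, up to 2 with the smallest p, and the 6 genes most like and 4 most opposite to CAV1. CAV3, CAVIN4, PAX5, the collagens, ADIPOQ, FABP4, VWF, KDR, CLDN5 and EMCN fall outside this rule and were named after their values were seen.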

Additional observations from a re-analysis of the deposited data

Results flagged for a closer look

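SNX9 was set apart because its response differed between the constructs in a direct test. T286A minus wild type was 0.71 (limma adjusted p = 0.0212 over all probe sets), with all 3 T286A arrays above all 3 wild-type arrays. The adjusted p ranged from 0.00129 to 0.0929 over the 17 alternatives, and the call was lost in 7 of them, the 6 that leave out a construct array and the replicate block (adjusted p = 0.0794). Groups of 2 or 3 arrays are too small for the test of single outlying arrays. It was the 1 gene called in that comparison among the 84 measured genes of the lists, where 0.526% of all probe sets were called. With the brightest probe set per gene, as the lists use, 180 of 18231 genes were called, a larger share. The lists were chosen with earlier results of these data known.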

How the results depend on the processing

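Limma called 0 of the other members' probe sets or genes under every alternative run, and at an unadjusted p under 0.05 between 0 and 2. The background moved more. Against 62 (T286A) and 390 (wild type) of all probe sets called against empty vector, 251 for both and 257 for T286A against wild type, the alternatives gave 1 to 997, 41 to 1148, 1 to 1162 and 90 to 840, the highest with eBayes trend and robust. CAV1 was followed by its brightest probe set or, with the mean probe set per gene, by that mean. Its other probe sets were not followed separately. Their empty vector arrays had an SD of 0.22 to 0.30, against 0.015 in the brightest. Followed in this way, CAV1 kept its direction and moved by less than the replicate SD of 0.14 of the brightest probe set. This is a description and no test of stability. Choosing probe sets by brightness, eBayes with trend and robust, and fitting only the groups compared leave this difference unchanged by construction. Leaving out 1 array can move a group mean only within the spread of its arrays. Leaving out 1 array gave 0.60 to 0.64 for T286A, 0.88 to 1.07 for wild type, 0.75 to 0.85 for both, and -0.45 to -0.26 for T286A minus wild type; all other settings gave 0.51 to 0.65, 0.96 to 1.04, 0.74 to 0.84 and -0.45 to -0.38. Deviations from group means correlated at -0.075 to 0.12 between same-numbered arrays of different groups, and at -0.12 to 0.12 between the others. Deviations within groups of 2 or 3 arrays constrain each other, so these values cannot decide whether the numbers pair arrays. With a replicate block SNX9 lost its call for T286A against wild type (adjusted p = 0.0794), CAV1 was at 0.65 for T286A and 1.03 for wild type, and all calls numbered 1, 102, 12 and 122, in the order above. Without wild-type replicates 1 or 3, each T286A replicate or each empty vector replicate, and with the block, SNX9 lost its call for both constructs together (adjusted p = 0.0509 to 0.276). Centring on 10 housekeeping genes shifted all differences by -0.047 (T286A) and -0.020 (wild type). The fit of only the groups compared was not run for both constructs together, which needs all groups. Fits without an empty vector array rest on a single control, assumed to vary like the other groups. Dim signal limits what can be said of CAV2, the cavins and EHD2.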
